A study of Mus musculus with 9 samples.

Results

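Dense clusters of sites whose chromatin accessibility changed after ERK activation are described here. A cluster was a run of 4 or more listed sites along a chromosome in which each centre lay 10 kb or less from the next. Of the 19165 sites in the authors' deposited table, 675 (3.52%) met this rule, in 135 clusters. The rule used positions and membership of the list and not the direction or size of a change. A further 4644 sites lay in runs of 2 or 3, and 13846 had no listed neighbour within 10 kb.

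The assay was ATAC-seq, which reads where the enzyme Tn5 can cut chromatin and join sequencing adapters to it. The cells were E14tg2a, a mouse embryonic stem cell line of 129SV background, with stable expression of cRAF-ErT2, in which a mutant hormone-binding domain of the estrogen receptor keeps a joined RAF kinase inactive until 4-hydroxytamoxifen (4OHT) is added. The sources used here do not say whether this line is 1 clone. Every library came from cells grown in serum, LIF and the GSK3 inhibitor Chir99021 (2 µM), then moved for the final 24 h to serum, LIF and the FGF receptor inhibitor PD173074 (250 nM). The control group was 3 untreated libraries (0 h), and the treated side was 3 libraries at 1 h and 3 at 2 h of 250 nM 4OHT. The table gives a mean level for each side and no value per library, and the mean over all libraries equalled a 3 to 6 weighted mean to within 0.00986, so 1 h and 2 h were taken as pooled and were not compared. Depth per library is unknown. None of the 9 libraries is from fusion-free or vehicle-treated cells, so effects of 4OHT itself or of handling and those of ERK cannot be told apart.

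RAF phosphorylates MEK, which phosphorylates ERK, and active ERK enters the nucleus and acts on transcription factors such as the ETS family. Early targets include immediate early genes and inhibitors that feed back on the pathway. Regulatory elements of 1 gene are often spread over many kilobases within and around it, and open elements can be seen as sites accessible to Tn5. In embryonic stem cells ERK signalling is known for its part in the exit from naive pluripotency and in the choice between lineages.

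A few sequences show what lay in the clusters. Where a clustered site overlapped a listed promoter, the 250 bases before the start of the transcript are given 5′ to 3′ from RefSeq (GRCm38.p6, the assembly that mm10 names). Capitals mark matches on either strand to CCGGAA, the core that ETS factors bind, or GGGCGG, the GC box of KLF and SP factors. The first 3 promoters belong to clusters with higher sites alone and the last to a cluster with lower sites alone, whose site overlaps only the last 7 bases shown.
Nab2, chr10:127666704-127666953, minus strand: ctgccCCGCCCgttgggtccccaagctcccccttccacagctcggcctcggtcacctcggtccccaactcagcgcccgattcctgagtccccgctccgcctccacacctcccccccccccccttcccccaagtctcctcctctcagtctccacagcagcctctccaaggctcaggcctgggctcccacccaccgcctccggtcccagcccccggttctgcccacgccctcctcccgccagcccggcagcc
Per1, chr11:69099902-69100151, plus strand: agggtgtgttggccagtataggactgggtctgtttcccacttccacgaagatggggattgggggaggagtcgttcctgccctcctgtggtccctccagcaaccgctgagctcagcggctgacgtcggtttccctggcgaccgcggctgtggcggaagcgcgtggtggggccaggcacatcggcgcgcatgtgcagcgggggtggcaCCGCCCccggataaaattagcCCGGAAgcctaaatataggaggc
Pla2g7, chr17:43568201-43568450, plus strand: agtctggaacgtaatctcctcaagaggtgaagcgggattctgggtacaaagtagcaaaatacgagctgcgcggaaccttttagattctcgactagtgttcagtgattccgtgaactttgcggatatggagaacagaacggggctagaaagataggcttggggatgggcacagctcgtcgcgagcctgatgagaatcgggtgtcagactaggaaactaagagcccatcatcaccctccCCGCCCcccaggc
Slc5a11, chr7:123214616-123214865, plus strand: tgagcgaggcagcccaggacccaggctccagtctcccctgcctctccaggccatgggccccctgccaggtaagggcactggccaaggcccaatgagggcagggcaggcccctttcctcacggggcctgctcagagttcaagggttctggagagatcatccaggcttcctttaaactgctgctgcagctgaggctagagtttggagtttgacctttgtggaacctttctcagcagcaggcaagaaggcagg
Nab2 encodes a corepressor of EGR factors, Per1 a circadian clock protein, Pla2g7 a secreted phospholipase and Slc5a11 a sodium-coupled inositol transporter. The Per1 window precedes a start inside the gene, and the site over it lay 4.994 kb from the start of the gene body. GGGCGG stands in the Nab2, Per1 and Pla2g7 windows, and CCGGAA in that of Per1, with its first base 23 bases before the start. Neither is in the Slc5a11 window, nor in those of Il6ra and Abcg2, which lie in opening clusters and are not printed, so the printed windows show no contrast between opening and closing clusters. Of all 21262 protein-coding promoter windows, 42.6% held GGGCGG and 15.0% CCGGAA in these 250 bases, and of the 8 windows that clustered sites overlapped, 5 and 3 did. None of the 8 held TGANTCA (AP-1), TGACGTCA (CRE), GCGGGGGCG (EGR) or the CArG box that SRF binds, which 6.13%, 1.92%, 3.41% and 1.39% of all windows held. Among 358 windows that other listed sites overlapped, TGANTCA was in 17.0%, TGACGTCA in 3.07%, GCGGGGGCG in 4.47%, the CArG box in 1.68%, GGGCGG in 49.2% and CCGGAA in 20.1%. With 8 windows these shares cannot be compared. A match is only a match of letters, and these windows cover few of the clustered sites.

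Sites in clusters were higher after 4OHT more often than listed sites as a whole. Accessibility was higher at 435 of the 675 clustered sites (64.4%, exact Clopper-Pearson 95% interval 60.7 to 68.1%) and lower at 240, against 52.6% higher and 47.4% lower among all listed sites and 52.2% higher (51.4 to 52.9%) among the 18490 listed sites outside clusters. In clusters of 7 or more sites all 163 sites were higher. The share was 52.1% (46.6 to 57.5%) in clusters of 4 sites and 55.2% (47.5 to 62.8%) in clusters of 5 or 6. Both lie near that of all listed sites. These intervals cover counting error only and take sites as independent, which neighbours are not, so no test of the difference is given. If the deposited FDR is a Benjamini-Hochberg value, its ratio to p implies about 243900 tested sites, of which the listed ones are 7.86%. All listed sites passed the authors' FDR of 0.01, and nothing is known here of unlisted sites that lie between the members of a cluster.

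Higher sites made up the larger clusters. All 17 clusters of 7 or more sites had higher sites alone, 163 sites in all. Among the 85 clusters of 4 sites, 28 had higher sites alone, 23 lower sites alone and 34 both, and 52.1% of their 340 sites were higher. Clusters of 5 numbered 26, of which 12 were all higher, 8 all lower and 6 mixed, and of the 7 clusters of 6 sites, 2 were all higher, 2 all lower and 3 mixed. Just under the limit, the 334 runs of 3 sites divided into 114 all higher, 116 all lower and 104 mixed. The size at which lower sites appear depended on the gap allowed. With gaps of up to 20 kb, 45 clusters had 7 or more sites, of which 23 were all higher and 4 all lower.

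**Figure D1:**
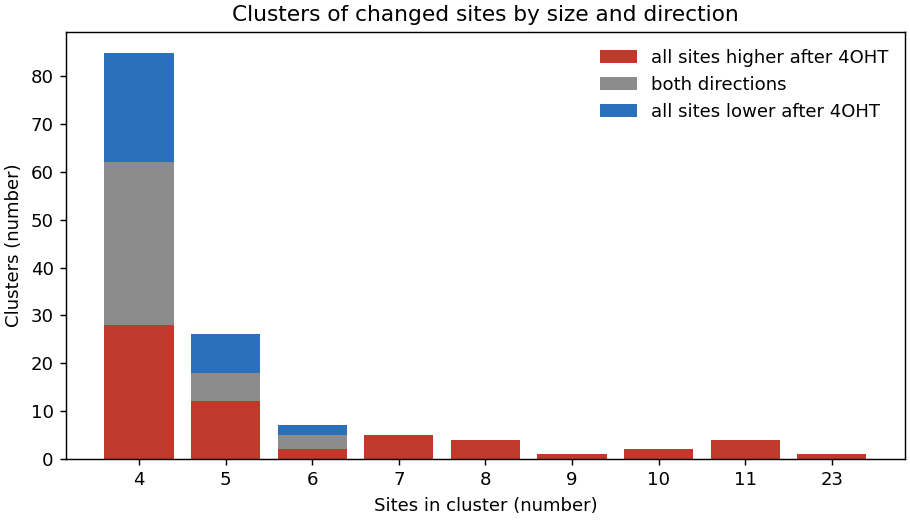
Number of clusters (vertical axis) by the number of sites they hold (horizontal axis, sizes with no cluster left out), stacked by whether all sites were higher after 4OHT, all lower, or both. The 17 clusters of 7 or more sites hold higher sites alone, and the 33 clusters of lower sites alone have 4 to 6 sites.

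In all, 59 clusters rose at every listed site, 33 fell at every listed site and 43 held both directions. The largest gap inside a cluster was 9918 bp and the smallest gap above the limit 10009.5 bp. Clusters spanned a median of 15.7 kb (range 3.78 to 80.3 kb), with a median gap of 3614.5 bp between adjacent centres, against 60.5 kb over all listed sites. The sites themselves covered a median of 16.0% of a cluster's span, so most of each span was not listed as changed.

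The largest cluster lay inside Jarid2, which encodes a cofactor of Polycomb repressive complex 2, at chr13:44760572-44840830 (mm10). It held 23 sites over 80.3 kb, and all of them were higher after 4OHT. In the authors' deposited table their control levels ran from 4.33 to 7.72 in log2 normalized reads, with a median of 5.93. From the first site to the eighth the log2 changes were 0.89, 0.91, 1.42, 1.37, 1.35, 1.27, 0.76 and 1.16. From the ninth to the sixteenth they were 1.20, 1.51, 1.15, 1.59, 1.04, 1.22, 0.98 and 1.17. The last 7 sites changed by 1.41, 1.06, 1.31, 1.71, 1.03, 0.60 and 0.61. No site stood far from the others: the median was 1.17, a 2.25-fold gain, with a spread of 0.29 (SD over 23 sites, not over libraries). The site with the smallest p, at 44793451 to 44793693, went from 4.86 to 6.37 in the authors' deposited table (FDR 2.98e-07). A second Jarid2 cluster nearer the start of the gene, at chr13:44733301-44744627, had 5 higher sites and 1 lower, with log2 changes of 0.54, -0.80, 1.75, 1.35, 1.22 and 1.12 (best FDR 3.12e-06 in the authors' deposited table). Beyond the large one, the cluster at chr13:44914703-44940918 reached from the end of Jarid2 into Dtnbp1, a subunit gene of the organelle complex BLOC-1, and its 6 sites were all higher, at 0.61 to 1.06.

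Spry4, a Sprouty gene whose product dampens signalling by receptor tyrosine kinases, lay under 1 of the 4 clusters of 11 sites, at chr18:38583779-38617510. All 11 sites were higher. Along the chromosome their log2 changes were 2.23, 3.28, 1.04, 1.38, 1.38, 2.25, 2.03, 0.82, 1.16, 0.84 and 1.60. The gains were above 2 at 4 of the first 7 sites and at none of the last 4, which were nearest to the neighbouring gene Arhgap26. In the authors' deposited table the second site went from 6.51 to 9.79 in log2 normalized reads, with an FDR of 4.37e-26. On either side, at 12.6 and 11.1 kb, stood 2 further clusters of 4 higher sites each. The first, at chr18:38557903-38571139, changed by 0.59 to 0.84 (best FDR 0.000206 in the authors' deposited table), and the second, inside Arhgap26 at chr18:38628566-38637381, by 0.74 to 1.30.

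The widest cluster after that of Jarid2 surrounded Arc, an immediate early gene of neuronal activity, at chr15:74631598-74687817. Its 11 sites, over 56.2 kb, were all higher. In order their log2 changes were 1.10, 0.54, 1.64, 0.72, 0.89, 0.50, 0.90, 3.03, 1.70, 0.46 and 1.44. The largest belonged to the site inside Arc at 74670150 to 74670348, which went from 5.03 to 8.06 (FDR 1.17e-15) in the authors' deposited table. The next site, the other one with its centre in Arc, rose by 1.70 from a level of 10.05 in the authors' deposited table. The 9 sites outside Arc gained 0.46 to 1.64, and the first 5 of them were nearest to Mroh4.

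At Ptprs, a receptor-type tyrosine phosphatase gene, 11 higher sites lay within 21.9 kb at chr17:56407728-56429589. This was the smallest mean gap among the clusters of 6 or more sites, at 2.13 kb. The log2 changes were 1.79, 2.63, 2.28, 2.42, 1.41, 1.19, 1.65, 1.68, 2.18, 2.10 and 1.25, with a median of 1.79 or 3.46-fold. Ptprs is on the minus strand, and the first 4 sites lay beyond the end of the gene and the other 7 in the part of it toward that end. The site with the smallest p went from 5.50 to 7.68 in the authors' deposited table (FDR 4.72e-08).

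The remaining cluster of 11 sites covered Plaur, the gene of the urokinase receptor, at chr7:24448968-24477992. Its log2 changes were 1.90, 0.61, 0.90, 1.41, 3.03, 1.26, 1.09, 0.63, 0.98, 2.56 and 2.65, with 3 gains above 2 and 4 below 1. In the authors' deposited table the site with the smallest p was a moderate gain, from 7.74 to 8.83 (FDR 2.28e-05).

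Clusters of 8 to 10 sites came next. A cluster of 10 sites inside Nrp2, a receptor gene for semaphorins and VEGF, at chr1:62750536-62777867, had a median change of 0.97 and a range of 0.56 to 2.67. Its site with the smallest p was already open, at 10.59 in the controls and 11.61 after 4OHT (FDR 6.02e-12) in the authors' deposited table. Nrp2 held 2 more clusters, of 7 and 4 sites, all higher, with medians of 1.35 and 1.815. Epha2, an ephrin receptor kinase gene, had 9 higher sites at chr4:141306057-141331637, with a median of 0.94 and an FDR of 3.35e-10 at the best of them in the authors' deposited table. Baiap2, which encodes an adaptor between small GTPases and actin, had 8 at chr11:119956698-120008035, with a median of 1.37, and the best FDR was 8.02e-08 in the authors' deposited table.

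The other clusters among the 12 with most sites also rose throughout. Across Mkrn1, a ubiquitin ligase gene, and Rab19, a small GTPase gene, 10 sites at chr6:39386850-39406835 had a median of 1.07 (best FDR 3.75e-07 in the authors' deposited table). G3bp2, which encodes an RNA-binding protein of stress granules, had 8 sites at chr5:92047526-92065100, led by 1 of 1.75 at the first position (FDR 3.05e-12 in the authors' deposited table). Skil, the gene of a SMAD corepressor, had 8 at chr3:31107612-31135539, of which 2 lay in the gene and the others outside it, with changes from 0.93 to 2.19 (best FDR 2.12e-05 in the authors' deposited table). None of the sites in the 12 largest clusters was lower.

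**Figure D2:**
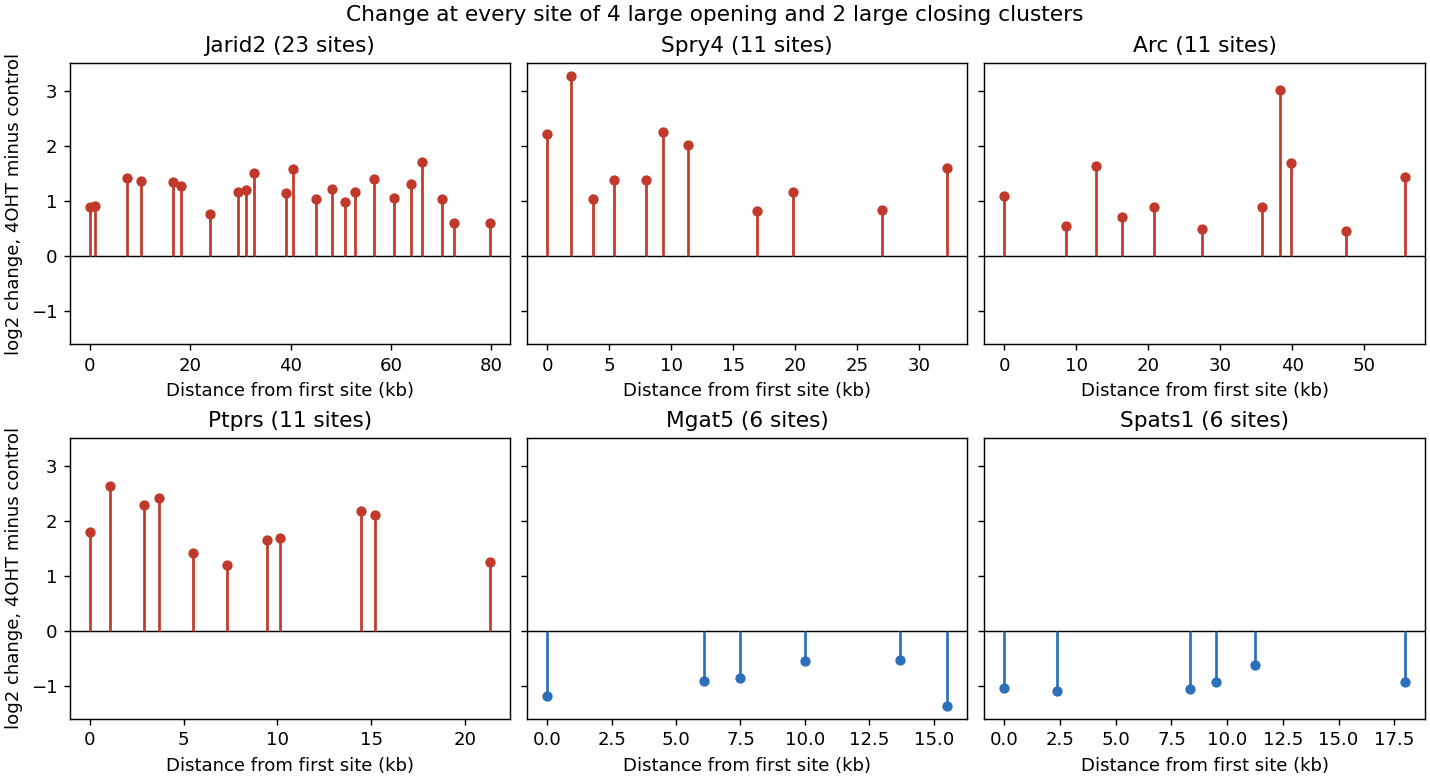
The log2 change, 4OHT minus control (vertical axis), of every site along the 4 largest clusters with higher sites and the 2 largest with lower sites, against distance from the centre of the first site in kb. Jarid2 shows 23 gains of like size, Spry4 and Arc have single gains of 3.28 and 3.03 among smaller ones, and the Mgat5 and Spats1 losses lie between -0.54 and -1.37.

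The 5 clusters of 7 sites, 1 of them the Nrp2 cluster above, were also all higher. Pla2g7 had 7 sites with changes of 1.06, 1.97, 2.92, 2.65, 1.69, 1.37 and 1.10, the first over the promoter given above. At Trim71, which encodes an RNA-binding protein of early development, the changes fell off along the chromosome, at 1.36, 1.26, 1.21, 1.13, 0.89, 0.81 and 0.68. Plec, the gene of the cytoskeletal linker plectin, had 7 sites at 0.87 to 2.94. The cluster nearest Zswim4, at chr8:84189648-84217290, had changes of 1.02, 1.14, 0.60, 0.70, 0.63, 1.60 and 1.51. Between the first 4 of these sites and the other 3 lie the hairpins of miR-23a, miR-27a and miR-24-2, which are made from 1 transcript, and none of the 7 sites overlapped a hairpin. The nearest began 1337 bp beyond them. Their main mature forms are given from RefSeq (GRCm38.p6), with the seed, bases 2 to 8, in capitals.
mmu-miR-23a-3p: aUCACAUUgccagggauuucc
mmu-miR-27a-3p: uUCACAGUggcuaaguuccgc
mmu-miR-24-3p: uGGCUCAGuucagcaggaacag
These seeds differ from each other, and no level of any miRNA was measured here.

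Clusters with lower sites alone had at most 6 sites. Their changes spanned a narrower range than gains did, as losses did over the whole list, where the quartiles of the log2 change were -1.14 and -0.76 for lower sites and 1.04 and 1.92 for higher ones. The 2 largest had 6 sites each. At Mgat5, a gene of an N-glycan branching enzyme, the sites at chr1:127228948-127244902 changed by -1.18, -0.92, -0.87, -0.55, -0.54 and -1.37. At Spats1, a gene named for its link with spermatogenesis, those at chr17:45447202-45465553 changed by -1.04, -1.09, -1.07, -0.94, -0.63 and -0.93. In the authors' deposited table the most open Spats1 site, that with the smallest p, went from 10.75 to 10.12, with an FDR of 0.000641. The best FDR at Mgat5 was 1.08e-05 in the authors' deposited table. All 6 sites of each cluster lay inside the gene.

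Next in size among closing clusters were those of 5 sites. The one with its midpoint 11904 bp from Tet1, which encodes a 5-methylcytosine dioxygenase, held its sites within 7.73 kb at chr10:62895510-62903236, with changes of -1.64, -0.97, -1.29, -1.10 and -0.44. Its first site had the smallest FDR of any site in a closing cluster of 5 or 6, at 6.18e-18 in the authors' deposited table. Inside Btbd11 the changes were -1.02, -0.74, -0.82, -0.55 and -1.44, with a best FDR of 1.47e-09 in the authors' deposited table. Inside Llgl2, a cell polarity gene, they were -0.82, -1.33, -1.39, -0.73 and -1.26 (6.78e-06 in the authors' deposited table). At Slc5a11 the site at the start of the gene, which reaches into the sequence given above, fell the most, by 1.54 on the log2 scale, from 9.50 to 7.96 in the authors' deposited table (FDR 1.28e-08), and the other 4 changed by -0.69 to -0.93. Near Aebp2, which like Jarid2 encodes a cofactor of Polycomb repressive complex 2, the changes were -0.91, -1.15, -1.73, -0.89 and -0.86 (best FDR 2.43e-05 in the authors' deposited table). Near Irf2bpl, at a distance of 20812 bp, they were -1.06, -1.23, -0.93, -0.68 and -0.58 (1.34e-06 in the authors' deposited table).

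Medians of opening and closing clusters differ in sign by definition, and their sizes overlapped. Medians of mixed clusters ran from -1.455 to 1.73. The median over the 59 opening clusters of their median log2 change was 1.23 (range 0.735 to 2.90), and over the 33 closing clusters -0.935 (range -1.32 to -0.735). The pooled spread between sites of the same cluster was 0.586 in opening and 0.324 in closing clusters (SD within clusters). Over all sites of opening clusters the SD was 0.655, and over all sites of closing clusters 0.320, which is no larger than that within clusters.

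The largest median gains were in clusters of 4 to 6 sites, the size of all but 17 of the 59 opening clusters. The cluster with the largest median, 2.90, lay 74274.5 bp from Med13l, a gene of the Mediator kinase module, and its 5 sites changed by 0.99, 2.90, 1.53, 4.94 and 3.44. In the authors' deposited table the control level at the site with the change of 4.94 was 0.10 in log2 normalized reads, close to 1 read, so that fold rests on very few reads, and the site with the smallest p went from 1.58 to 5.02 (FDR 3.06e-05). Cavin1, a gene of the caveolar coat, followed with changes of 1.02, 1.69, 2.96, 3.18 and 2.59, and Ehd4, a gene of endocytic recycling, with 2.40, 2.59, 1.58 and 2.92. In the authors' deposited table the median control levels at Med13l, Cavin1 and Ehd4 were low, at 3.44, 3.72 and 4.395. The median of such medians over opening clusters was 6.575. The next in order were Slc26a2, a sulfate transporter gene, with 6 sites and a median of 2.27, Sparc with 1.95, Lsm6 with 1.89 and Rock2, a kinase gene, with 1.86. Single large gains also stood in clusters with lower medians. Hbegf, which encodes a ligand of the EGF receptor, had 5 higher sites at 1.87, 3.51, 1.69, 1.58 and 0.51, the second of them from 2.90 to 6.41 in the authors' deposited table (FDR 1.38e-10). Nab2 had 5, at 0.72, 2.52, 0.82, 1.07 and 0.70, of which the last covered its promoter.

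**Figure D3:**
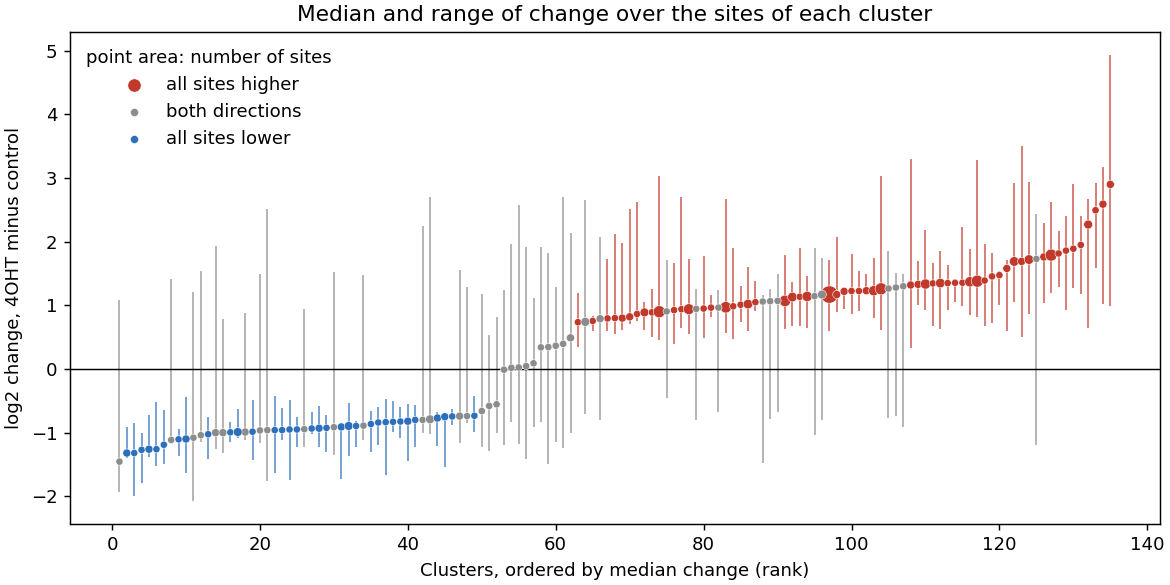
Log2 change, 4OHT minus control (vertical axis), for the 135 clusters ordered by their median (horizontal axis, rank). Points are medians over sites with area by number of sites, and lines run from the lowest to the highest site. Medians of closing clusters lie between -1.32 and -0.735 and those of opening clusters between 0.735 and 2.90, and the lines of the 43 mixed clusters cross 0.

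Most mixed clusters differed from a cluster of 1 direction by a single site. In 34 of the 43 a lone site went against the others, a higher one in 19 and a lower one in 15, and in 9 the directions were evenly split. The lone site stood at an end of the cluster in 19 and inside it in 15. By size, 34 of the mixed clusters had 4 sites, 6 had 5 and 3 had 6. With 4 sites the only mixed splits are 3 to 1 and 2 to 2, and 2 of the places are ends. Cluster size thus largely sets how many lone sites there are and where they stand. The median size of the lone site's change was 1.02 on the log2 scale against 1.10 for the other sites of these clusters. It was the larger in 16 of the 34 clusters with a lone site. Along the chromosome the direction switched once in 24 mixed clusters, 2 times in 16 and at least 3 times in 3.

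The 3 mixed clusters of 6 sites each had a lone exception. That of Jarid2 is given above. Near Ywhaq, a gene of a 14-3-3 protein, the sites at chr12:21418664-21441162 changed by -0.67, 2.71, -0.85, -1.02, -0.73 and -1.0. The rising site went from 4.37 to 7.08 in the authors' deposited table (FDR 4.43e-08), between neighbours that fell. At Slc2a1, which encodes a glucose transporter, the changes were 2.65, -0.70, 0.62, 0.84, 1.29 and 0.64 (best FDR 3.96e-05 in the authors' deposited table).

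Adjacent sites in a cluster moved the same way more often than other adjacent sites at the same distance. Of the 540 adjacent pairs inside clusters, 475 shared their direction (88.0%, exact interval 84.9 to 90.6%), 322 as gains and 153 as losses. For pairs in runs of 2 or 3 sites, with gaps of 10 kb or less too, the share was 75.6% of 2489 (73.8 to 77.2%). At gaps of up to 2 kb it was 94.4% of 160 pairs inside clusters and 83.4% of 584 outside, and at gaps of 5 to 10 kb 84.3% of 198 and 71.4% of 1115. Beyond the limit it was 63.6% at 10 to 20 kb and 54.2% above 100 kb. In clusters of 7 or more sites every pair moved the same way, and the share inside clusters was not computed without them. With runs of 3 sites taken in as clusters it was 83.5%. Pairs of 1 cluster share sites and are not independent, and these shares are a description with no test.

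**Figure D4:**
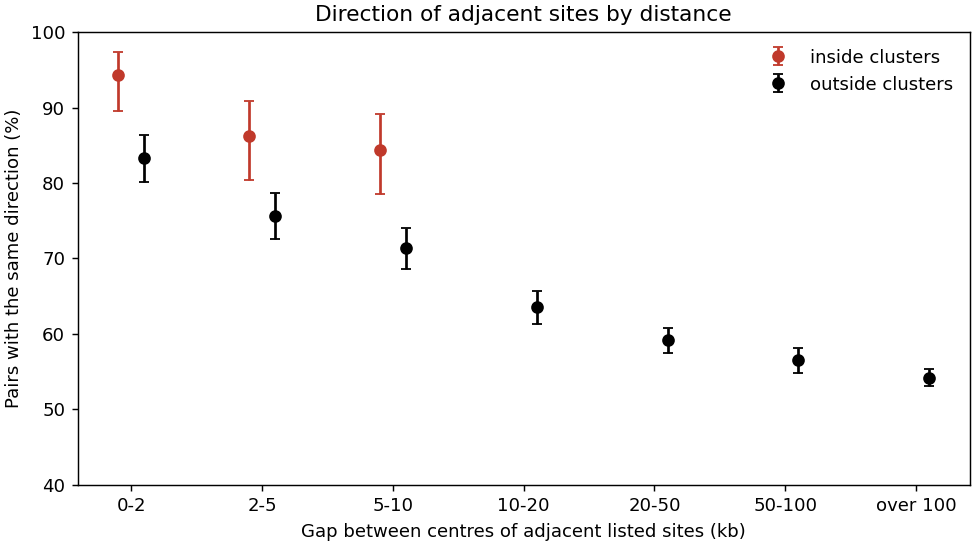
Share of adjacent listed sites that changed in the same direction (vertical axis, %, drawn from 40) by the gap between their centres (horizontal axis, kb), inside clusters and outside them, with exact 95% intervals for counting error. Inside clusters it goes from 94.4% at up to 2 kb to 84.3% at 5 to 10 kb, and outside from 83.4% to 54.2% above 100 kb.

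Opening clusters lay in genes more often than closing clusters, as higher listed sites did more often than lower ones. The midpoint was inside a protein-coding gene body in 41 of 59 opening clusters (69.5%), 13 of 33 closing clusters (39.4%) and 25 of 43 mixed ones (58.1%). No protein-coding gene was overlapped at all by 12 opening and 17 closing clusters. By site, 66.3% of those in opening and 41.0% in closing clusters had their centre in a gene body, against 54.6% of all higher and 43.1% of all lower listed sites. The closing share was near that of all lower sites. Among higher sites in clusters of any kind, 53.7% were in a gene body in clusters of 4 sites. That share was 72.6% in clusters of 5 or 6 and 73.6% in clusters of 7 or more. For midpoints no share over all listed sites was computed. In clusters whose nearest gene had a known strand, 11.7% of 266 sites of opening clusters and 37.8% of 127 sites of closing clusters lay before the start of that gene, 65.4% and 39.4% in its body, and 22.9% and 22.8% beyond its end. These were 46 of the opening and 29 of the closing clusters, without those of Spry4 and Arc. The large Jarid2 cluster alone gave 23 of the sites in gene bodies. The same shares over all listed sites were not computed, so the difference cannot be called a trait of clusters. The labels do not say which gene a site acts on, and the nearest gene is a naming convention.

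Start sites of genes were few in clusters, as they were in the whole list. Of the 631 clustered sites on chromosomes other than 18, for which start sites were not used here, 11 (1.74%) had their centre within 1 kb of a listed protein-coding start site, against 2.24% of the 18501 listed sites on the same chromosomes. Of these 11, 10 were higher, and of the 415 such sites in the whole list 359 were higher and 56 lower, so a majority of gains at start sites was shared by all listed sites. Listed start sites covered 17491 of the 21896 protein-coding genes, and genes without one, such as Arc, add nothing to these counts. In 7 opening clusters with a site within 1 kb of a listed start site, its gain was smaller than the median of the other sites in 5. At Il6ra, a cytokine receptor gene, the gain was 0.39 there against 1.14. At Per1, where the start is the one inside the gene, it was 0.55 against 0.93, whereas at Nab2, with 2 such sites, it was 0.885 against 0.82.

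Clustered sites that rose had a higher control level and a smaller gain than the bulk of other sites that rose, most of which stood alone. In the authors' deposited table their control level had a median of 6.31 in log2 normalized reads, against 5.40 for higher sites outside clusters, and the 4OHT level 7.60 against 6.98. The median log2 change was 1.22 (2.33-fold) against 1.47 (2.77-fold). Runs just under the limit were close to those just over it: higher sites had a median change of 1.25 in runs of 3 and 1.24 in runs of 4, and their control levels in the authors' deposited table had medians of 5.925 and 5.99. The smaller gain was thus not particular to clusters. Lower sites differed less, with a median change of -0.95 in clusters and -0.94 outside, and control levels of 8.085 and 7.83 in the authors' deposited table. A gain of at least 1 was seen at 44.1% of all clustered sites, beside 40.8% of all listed sites, and a loss of that size at 16.0%, beside 20.1%. The share of higher sites inside clusters and outside was 76.1% against 66.1% at mean log2 levels below 6, 60.8% against 53.5% at 6 to 7, 59.9% against 44.9% at 7 to 8 and 64.4% against 43.5% at 8 and above. Below a level of 6 the exact intervals overlapped (67.2 to 83.6% against 64.8 to 67.5%). They also overlapped at 6 to 7 (53.1 to 68.2% against 52.1 to 55.0%). These shares include the 163 sites of clusters of 7 or more, all higher, and were not computed without them. The authors' power to list a site rises with its level, and how far this sets which places reach 4 listed sites was not tested.

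Within opening clusters the least open site was mostly in the upper range of gains, though often not the largest gain, as at Jarid2, Spry4 and Arc. In 28 of 31 opening clusters of 5 or more sites, the site with the lowest control level gained more than the cluster's median, and in 25 the site with the highest control level gained less. In 10 closing clusters of that size these counts were 5 and 6. The control level is also part of the change, which favours such an order.

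**Figure D5:**
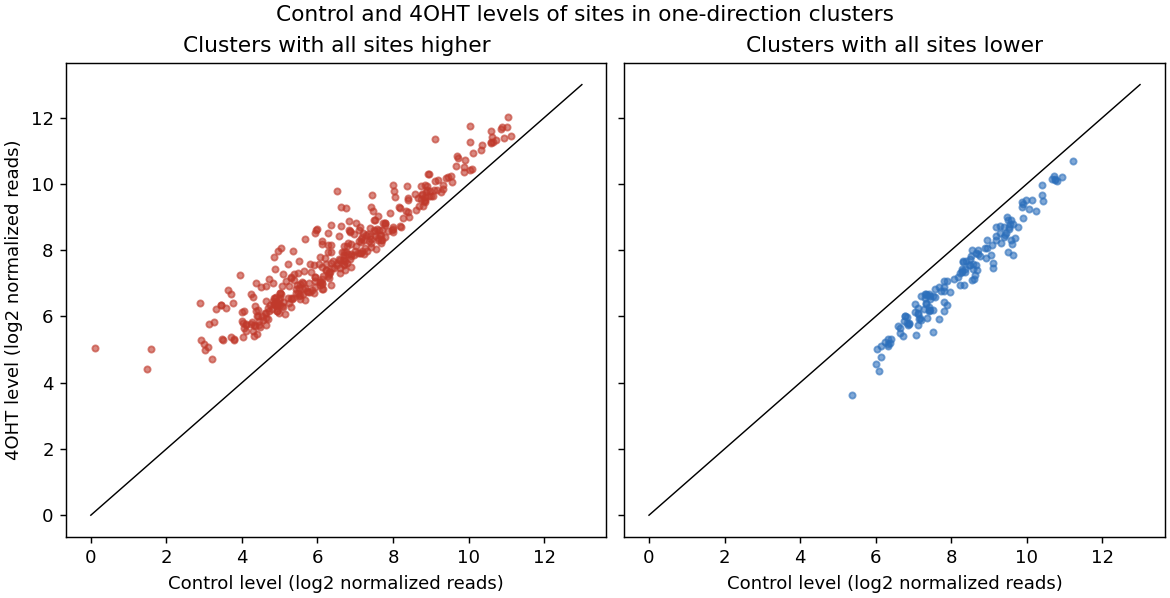
Level after 4OHT (vertical axis) against control level (horizontal axis), both in log2 normalized reads from the authors' deposited table, for the 347 sites of opening and the 144 sites of closing clusters, with a line where both are equal. Sites of opening clusters lie farther above the line where the control level is low.

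Clusters were on every autosome. None of the 472 listed sites on X lay in a cluster, and Y, with 2 listed sites, could not hold one. The share of a chromosome's listed sites that lay in clusters ran from 1.92% on chromosome 9 to 6.87% on chromosome 17 and 6.63% on chromosome 18. In 8 cases clusters neighboured each other within 100 kb, 5 of them at the same gene. In 5 of the 8 both were all higher, in none were both all lower, and in none did an opening cluster neighbour a closing one. These were the 3 clusters of Nrp2, those around Jarid2 and around Spry4, a mixed pair in Msi2, and the pair of Pfdn1 and Hbegf. Pfdn1, a prefoldin subunit gene, had 4 higher sites and 1 lower, 76.0 kb from the cluster at Hbegf.

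The 135 clusters had 128 nearest genes, which is 0.585% of the 21896 protein-coding genes. Of the 139 genes on 7 lists, 8 were nearest to a cluster, or 1 to 3 on each list that had any. The lists were chosen with earlier results of these data known, so their share cannot be set against that of all genes. Among 19 ERK feedback and FGF target genes it was Spry4, and among 24 immediate early genes Arc. Among 20 naive pluripotency genes it was Klf5, a zinc finger factor gene, whose cluster lay 13701 bp away and its sites rose by 0.60, 0.78, 0.81 and 1.73 (best FDR 1.05e-09 in the authors' deposited table). None of the 24 genes of the ERK pathway itself was nearest to a cluster. Of 22 epiblast and early lineage genes it was Sparc, which encodes a matrix protein, with 4 sites inside the gene at 2.41, 1.18, 2.37 and 1.53 (9.34e-05 in the authors' deposited table). Jarid2, Med13l and Tet1 were those among 23 Polycomb and chromatin regulators, with gains at the first pair apart from 1 Jarid2 site and losses at Tet1. That list is not complete. Aebp2, the Polycomb cofactor gene above whose cluster had lower sites alone, is not on it. Of 7 genes of fibroblasts, which serve as feeder cells, it was Fn1, the fibronectin gene, where all 4 sites fell, at -1.10, -0.65, -1.28 and -1.49 (4.48e-12 in the authors' deposited table). No RNA was measured, so whether feeder cells were present was not tested.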

How the data were processed

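ATAC-seq libraries of 9 samples were made by the authors, who named them A, B and C at each time. Whether a letter stands for its own culture is not in the labels, so the spread behind the deposited p-values could be technical. Titles B and C carry the tags B2 and B in the descriptions, and whether they repeat 1 sample is unknown. Bowtie2, MACS2, bedtools and build mm10 appear per the submitters' processing notes. No source used here gives the differential test, the read filters or the normalization. Per site, the authors' deposited table gives mean levels and a fold as log2 values, and a p-value and FDR per site, per the file headers. That fold is control minus 4OHT, so the change here is the 4OHT level minus the control level.

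Sites were sorted by chromosome and centre and joined where centres lay 10 kb or less apart, and runs of 4 or more were kept. Genes came from a RefSeq table of GRCm38.p6. Each cluster was named by the protein-coding gene body at or nearest to its midpoint (the gene with most of the sites where bodies overlap). Start sites and strands came from 21262 promoter windows of 17491 genes, and 104 of the 128 nearest genes had one. Members and lists were chosen with earlier results of these data known. Clusters named were the 12 with most sites, the 8 largest all higher and all lower, the most even, closest and widest ones, and those nearest a list gene. Of the clusters this rule names, 1 is not reported here. Hbegf, Nab2, Per1, Pla2g7, Il6ra, Trim71, Plec, Zswim4, Cavin1, Ehd4, Slc26a2, Lsm6, Rock2, Abcg2, Pfdn1, Dtnbp1, Arhgap26, Msi2 and the smaller Nrp2 clusters were named after their values were seen. Intervals of shares are exact Clopper-Pearson 95% ones and hold counting error alone. No test between groups of sites was made, since sites of a cluster are not replicates. The joining step was tested on simulated runs. The software was matplotlib 3.10.9, scipy 1.17.1, numpy 2.4.6 and pandas 2.3.3 under Python 3.11.15.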

Additional observations from a re-analysis of the deposited data

How the results depend on the processing

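The number of clusters follows the rule, and higher sites were the majority of clustered sites under every alternative run. Against 135 clusters there were 46 with a gap of 5 kb, 364 with 20 kb, 469 with 3 sites, 24 with 6 sites, 23 with FDR under 0.001 and 35 with changes of at least 1. The share of higher sites was 57.8% with gaps of 20 kb, 54.8% with 3 sites, 90.7% with 6 sites, 84.1% with FDR under 0.001 and 88.8% with changes of at least 1. Among all listed sites it was 52.6%, close to the share with 3 sites. Of all listed sites with changes of at least 1, 7821 were higher and 3858 lower, so gains were the majority there without any clustering. The share over all sites with FDR under 0.001 was not computed. Clusters of 1 direction were 82.6% with gaps of 5 kb, 50% with 20 kb, 87.5% with 6 sites, 91.3% with FDR under 0.001 and 85.7% with changes of at least 1, against 68.1%. Adjacent pairs of the same direction were 92.8% with gaps of 5 kb, 79.8% with 20 kb, 83.5% with 3 sites, 96.7% with 6 sites, 97.1% with FDR under 0.001 and 95.8% with changes of at least 1, against 88.0%. The cause was not tested, beyond the fewer or further sites that each alternative takes in by construction. Joining sites within 500 bp, autosomes alone and gaps between facing edges kept these 4 values within 1.5 times (the count) or within the interval (the shares). Of alternatives chosen after seeing the data, leaving out the large Jarid2 cluster kept the 3 shares within their intervals, and leaving out sites near start sites, run for the share of higher sites alone, gave 63.0%. The gene nearest to most sites was the same gene for 134 of the 135 clusters.

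No paired analysis was possible because the table holds no values per library, and leaving out each replicate was not run for the same reason. Depth per library is unknown, so its effect on which sites were listed was not tested.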
